A study of Mus musculus with 16 samples.

Results

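The comparison described here sets 2 libraries labelled MYOD-/- against 2 libraries labelled wild type (WT), all from proliferating C2C12 cells that carry the empty control vector (EV). They were chosen by their labels alone and are 4 of the 16 libraries of the series. C2C12 is an established mouse myoblast line, and the labels give its source as skeletal muscle, its strain background as C57BL/6 and its age as postnatal day 21. The MYOD-/- cells were made with CRISPR-Cas9 and taken through screening of single cells, so that they may descend from 1 clone, and both kinds of cell were then stably transfected with the vector. All 4 libraries come from cells kept in growth medium (GM), in which C2C12 cells divide and do not fuse. The other groups of the series carry a vector for the spliced form of the noncoding RNA MUNC, or were moved to differentiation medium (DM), and only their genotype comparisons are used below. The labels do not say which part of Myod1 was deleted, nor whether the replicates of a group were separate cultures. Each p-value sets the distance between these libraries against a spread estimated from the replicates of all 16 libraries. Both the distance and the spread can be technical.

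MyoD, the product of Myod1, is a basic helix-loop-helix transcription factor that pairs with E proteins, binds short DNA sequences called E-boxes and turns on skeletal muscle genes. Dividing myoblasts already hold MyoD together with its relative Myf5, while Id proteins keep E proteins away from them until growth factors are withdrawn. Myogenin, the acetylcholine receptor subunits, the sarcomere proteins and the fusion proteins are then made in turn.

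Poly(A) RNA was sequenced to 62739703 and 52972979 estimated counts in the WT-labelled libraries (WT rep1 and WT rep2) and to 35832002 and 45219276 in the knockout-labelled ones (KO rep1 and KO rep2). Levels are in CPM (counts divided by the library size after scaling), given for rep1 and rep2 of the WT-labelled cells and then, after "against", of the knockout-labelled cells, and changes are log2 fold changes ± SE of the knockout-labelled over the WT-labelled group, with edgeR's quasi-likelihood p adjusted over 14972 genes. A gene is said to have risen or fallen where its adjusted p is under 0.05. The replicate numbers moved some genes more than the genotype labels did. Zrsr1 took 2.69% of the counts of WT rep2 and 13.0% of those of KO rep2, and 0.0117% and 0.0111% in the first replicates. The cell adhesion gene Cdh15 was at 88.5 and 13.8 CPM in the WT-labelled and 85.7 and 4.54 CPM in the knockout-labelled libraries, and Id1, which codes for an Id protein, at 12.6 and 103 CPM against 7.71 and 77.5 CPM. For both genes the first replicates of the 2 labels resembled each other more than the replicates of 1 label did.

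Myod1 itself (chromosome 7, 46376474 to 46379092, GRCm38) went against the labels. It was at 0.291 and 0.0191 CPM in the WT-labelled libraries and at 13.9 and 11.9 CPM in the knockout-labelled ones. Both libraries labelled MYOD-/- lay above both labelled wild type, with a log2 fold change of 6.29 ± 0.75 (adjusted p = 0.000385). The call held without each of the 4 libraries in turn. Whether the counted transcript holds the deleted part cannot be told from the labels, and every direction below therefore follows the labels as given. Of the 10 markers of C2C12 myoblasts, 3 rose (Myod1, Chrna1 and Mymk), where 4.58% of all genes did. None fell, but 4 of the 10 had a log2 fold change below 0. The summed level of the 10 was 531 and 313 CPM in the WT-labelled and 830.2 and 539.9 CPM in the knockout-labelled libraries. At least 7 of the 10 reached 1 CPM in every library. Des, the intermediate filament of muscle, was at 25.7 and 14.2 CPM in the WT-labelled and 16.6 and 6.09 CPM in the knockout-labelled libraries, with overlapping groups, and Itga7, a laminin receptor, at 196 and 103 CPM against 331 and 187 CPM.

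Across all genes, 1550 of 14972 (10.4%) differed by label. Of these, 686 were higher (4.58% of the genes tested) and 864 lower (5.77%) in the knockout-labelled libraries, and the median log2 fold change of all genes was -0.035. More than 4-fold differences were found for 321 of the higher and 215 of the lower genes. All 1550 had both libraries of 1 label above both of the other, as did 48.6% of all genes tested. The count rested on every library: it was 776 without WT rep1, 713 without WT rep2, 895 without KO rep1 and 754 without KO rep2, and 341 when only these 4 libraries were fitted. The excess of lower over higher genes depended on the fit, with 751 higher and 755 lower with DESeq2 size factors, 603 and 587 with a filter at 5 CPM, 1075 and 1040 with DESeq2, 210 and 131 with only the 4 libraries, and 458 and 296 without KO rep2. In bulk RNA, a larger share of cells that express a gene and more RNA per cell cannot be told apart.

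**Figure D1:**
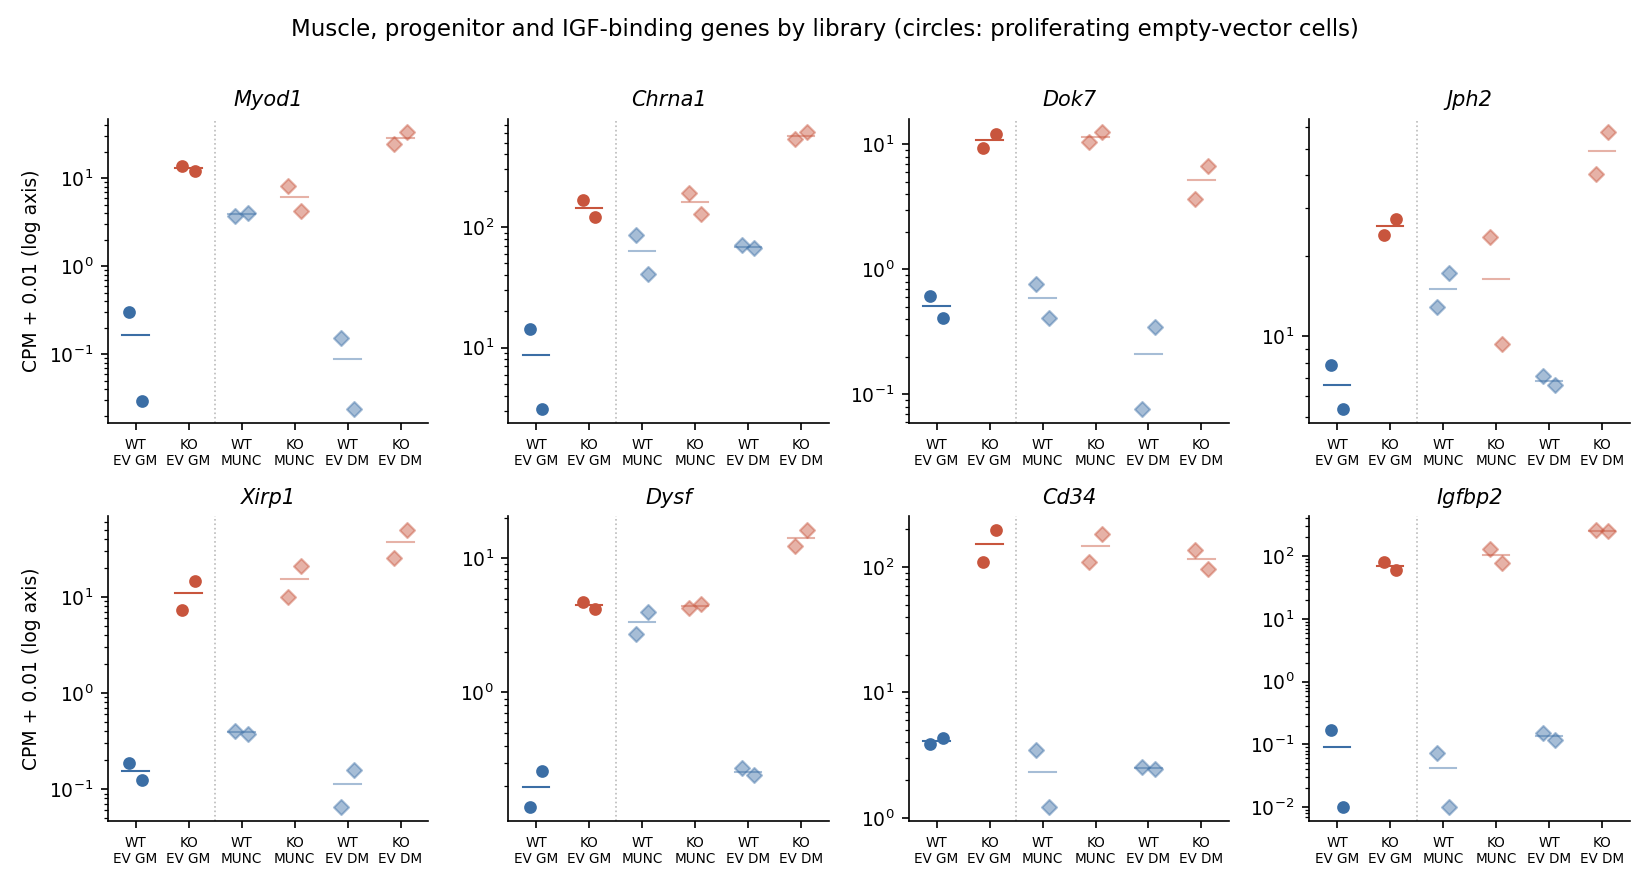
Level in CPM (log axis, 0.01 added) of 8 genes in each library, with WT-labelled libraries in blue and knockout-labelled ones in red, and a bar at the mean of each pair. Filled circles are the proliferating empty-vector cells and pale diamonds the proliferating MUNC and differentiating empty-vector cells. Myod1 stands at 0.291 and 0.0191 CPM against 13.9 and 11.9 CPM in the circles, and in all 8 panels both red circles lie above both blue ones.

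Among the regulators of myogenesis, 2 of the 20 tested rose and none fell, and their median log2 fold change was 0.32. The second beside Myod1 was Smarcd3, a subunit of the SWI/SNF chromatin remodelling complex that opens muscle promoters, at 22 and 16.1 CPM against 33.7 and 31.7 CPM (0.78 ± 0.21, adjusted p = 0.0399). Its adjusted p was 0.245 without WT rep2, 0.139 without KO rep1 and 0.0896 without KO rep2. Myf5, the other myogenic factor of dividing myoblasts, was at 85.5 and 102 CPM in the WT-labelled and 86.8 and 153 CPM in the knockout-labelled libraries, so that only KO rep2 stood apart. Its change of 0.36 ± 0.24 did not pass (adjusted p = 0.409), and without KO rep2 it was -0.07. Myog, the myogenin gene, stayed at 0.321 CPM or less in every library, and Pax7, the satellite cell factor, and Mef2c were too low to be tested. Of 16 inhibitors of myogenic factors, Bhlhe41 and Sirt1 rose and none fell. Bhlhe41, a repressor that blocks MyoD activity, rose from 17.1 and 12 CPM to 39.2 and 29 CPM (1.23 ± 0.28, adjusted p = 0.017; 0.133 without WT rep2 and 0.102 without KO rep1). Sirt1, a protein deacetylase, was at 35.3 and 30.4 CPM against 50.6 and 49.9 CPM (0.61 ± 0.17, adjusted p = 0.0391; between 0.0854 and 0.218 with each of the 4 libraries left out in turn). These lists are small, so that 1 or 2 genes make the difference from the 4.58% of all genes that rose.

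Genes of the postsynaptic membrane included a pair of large increases. Chrna1, the alpha subunit of the muscle acetylcholine receptor, was at 14.3 and 3.07 CPM in the WT-labelled and at 167 and 121 CPM in the knockout-labelled libraries. The lowest knockout-labelled value was several times the highest WT-labelled one (4.05 ± 0.60, adjusted p = 0.00157; 0.0682 when only the 4 libraries were fitted). Dok7, the adaptor that activates the receptor kinase MuSK, was at 0.598 and 0.4 CPM against 9.39 and 12.2 CPM (4.42 ± 0.59, adjusted p = 0.000839). Musk itself was at 0.307 and 0.133 CPM against 0.562 and 0.1 CPM, with overlapping groups. Chrna1 and Dok7 were the 2 of 16 tested members of the list that rose (12.5%, against 4.58% of all genes). None fell, and the list's median log2 fold change was 0.47.

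The genes that couple excitation to contraction gave 2 increases among 18 tested members (11.1%, against 4.58% of all genes). None fell, and the median was 0.49. Jph2, junctophilin 2, holds the sarcoplasmic reticulum against the surface membrane. It was at 7.84 and 5.34 CPM in the WT-labelled and 23.9 and 27.4 CPM in the knockout-labelled libraries, without overlap (1.96 ± 0.38, adjusted p = 0.00729; 0.0747 without WT rep2). Ryr1, the calcium release channel, was under 1 CPM in all 4 libraries, at 0.226 and 0.229 CPM against 0.616 and 0.576 CPM, and named after its values were seen (1.38 ± 0.40, adjusted p = 0.0489). That call ended in all 4 fits with a library left out, with an adjusted p between 0.124 and 0.185 with each of the 4 libraries left out in turn.

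The starts of Chrna1 and Jph2 are shown because both genes rose with Myod1 in these libraries. The letters are the 250 bases before an annotated start, from RefSeq on GRCm38.p6. They are read 5′ to 3′ on the gene's strand, which is the minus strand for both. Capitals mark the E-boxes searched, CAGCTG and CAGGTG, on both strands and with overlapping matches counted.
Chrna1, chr2:73580339-73580588: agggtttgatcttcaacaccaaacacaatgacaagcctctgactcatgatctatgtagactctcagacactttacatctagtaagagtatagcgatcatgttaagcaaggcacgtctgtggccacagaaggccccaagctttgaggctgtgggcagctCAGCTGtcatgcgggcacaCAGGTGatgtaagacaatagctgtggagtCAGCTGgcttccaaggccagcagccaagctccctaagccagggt
Jph2, chr2:163397994-163398243: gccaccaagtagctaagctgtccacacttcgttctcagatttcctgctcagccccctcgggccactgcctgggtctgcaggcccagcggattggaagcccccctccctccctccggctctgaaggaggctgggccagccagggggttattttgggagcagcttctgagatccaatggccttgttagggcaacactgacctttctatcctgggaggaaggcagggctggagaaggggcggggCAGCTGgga
The window of Chrna1 held CAGCTG at 92 and 44 bases before the start and CAGGTG at 73. Jph2 had 2 such windows, and the 1 printed held CAGCTG at 9. Among 27025 genes with such a window, 14.7% held CAGCTG and 19.4% CAGGTG. Among the 11722 tested genes with a window, 14.6% and 18.3% did. Of the 86 tested members with a window in the 5 lists of myogenic regulators, postsynaptic, excitation-contraction, sarcomere and fusion genes, 29 (33.7%) held CAGCTG, and of the 9 of them that rose, 3 did. CAGGTG was in 17 of the 86 (19.8%), near its share of all windows. Of the 541 windows of all genes that rose, 28.3% held CAGGTG and 15% CAGCTG, and of the 681 of all genes that fell, 20% and 14.4%. A match is a description of these letters only.

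Sarcomere genes changed in few members. Of 44 tested, 4 rose (9.09%, against 4.58% of all genes), none fell, and the median log2 fold change was 0.27. Xirp1, which codes for an actin-binding protein of the intercalated disc and myotendinous junction, was at 0.178 and 0.114 CPM in the WT-labelled and 7.31 and 14.5 CPM in the knockout-labelled libraries (6.18 ± 0.67, adjusted p = 0.000228). Ttn, titin, was at 0.97 and 0.648 CPM against 22.6 and 4.71 CPM, with KO rep1 far above KO rep2 (4.07 ± 1.03, adjusted p = 0.0284; 0.135 without WT rep1, 0.17 without WT rep2 and 0.183 without KO rep1). Tmod1 (tropomodulin 1, the cap of the thin filament) and Smyd1 (a methyltransferase needed for myosin assembly) also rose, and both were named after their values were seen. Smyd1 had 2 counts in the WT-labelled group and 109 in the knockout-labelled one, a ratio of 80.6 (exact 95% counting interval 21.8 to 674). Counting intervals, here and below, cover counting error only and not the spread between replicates. Without WT rep1, WT rep2 or KO rep1 only 1 member of the list rose. Acta1, skeletal alpha actin, was at 5.26 and 4.88 CPM against 2.01 and 8.6 CPM, so that the groups overlapped.

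In the list of adhesion, fusion and membrane repair genes, 3 of 33 tested rose and 1 fell, where 4.58% and 5.77% of all genes did. Dysf, dysferlin, which reseals torn muscle membranes, showed the clearest separation, at 0.129 and 0.248 CPM against 4.71 and 4.18 CPM (4.57 ± 0.31, adjusted p = 1.73e-05). Jam3, a junctional adhesion molecule, was at 7.83 and 6.88 CPM against 14.8 and 13.6 CPM (0.95 ± 0.20, adjusted p = 0.0109; 0.0891 without WT rep2 and 0.0591 without KO rep1). Mymk, myomaker, a protein that drives myoblast fusion, had 0 counts in the WT-labelled group and 46 in the knockout-labelled one, which makes it at least 22.7-fold higher against a floor of 3 counts over the group. Its adjusted p was 0.00991, and 0.0617 without WT rep1, 0.0525 without WT rep2 and 0.0613 without KO rep1. Mymx, the other fusion protein, had at most 0.0162 CPM in any library. The gene that fell was Sgca, alpha-sarcoglycan, at 1.25 and 0.706 CPM against 0.375 and 0.15 CPM (-1.90 ± 0.52, adjusted p = 0.0388; 0.216 without WT rep1, 0.0509 without WT rep2 and 0.24 without KO rep2). Mymk and Sgca were named after their values were seen. Without WT rep2, 1 member of the list was called, and without KO rep1, 2 were.

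Markers of satellite and progenitor cells rose in 3 of 19 tested and fell in 1, where 4.58% of all genes rose and 5.77% fell. Cd34, a surface sialomucin of quiescent satellite cells, was at 3.9 and 4.29 CPM in the WT-labelled and 109 and 196 CPM in the knockout-labelled libraries. No value of 1 group came near the other (5.22 ± 0.65, adjusted p = 0.000525). Peg3, an imprinted zinc finger gene, was at 57.9 and 40.7 CPM against 176 and 108 CPM (1.52 ± 0.41, adjusted p = 0.0361; 0.0912 without WT rep1, 0.211 without WT rep2 and 0.185 without KO rep1). Cd24a, a surface antigen named after its values were seen, was at 0.162 and 0.0381 CPM against 1.69 and 0.601 CPM (3.44 ± 0.73, adjusted p = 0.0124; 0.0953 without WT rep2 and 0.0932 without KO rep1). Foxc1, a forkhead factor, was lower in the knockout-labelled libraries, at 21.1 and 29 CPM against 15.5 and 13.8 CPM (-0.78 ± 0.21, adjusted p = 0.0364; 0.245 without WT rep2, 0.0945 without KO rep1 and 0.211 without KO rep2). Vcam1, an adhesion molecule of satellite cells, went with the replicate number, at 62.6 and 20.4 CPM against 63.9 and 11.2 CPM. Without WT rep2 or KO rep1, 1 of the 4 calls was left.

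The insulin-like growth factor (IGF) axis had the largest share of increases among the pathway lists, with 5 of 20 tested members higher (25%, against 4.58% of all genes) and none lower. IGF proteins promote growth and differentiation of myoblasts, and binding proteins hold them in the medium. Igfbp2, one of these binding proteins, was at 0.162 and 0 CPM in the WT-labelled and at 80.3 and 59.3 CPM in the knockout-labelled libraries (9.62 ± 1.11, adjusted p = 0.000336). Igfbp3, the main carrier of IGF in blood, had 3 counts in the WT-labelled group and 675 in the knockout-labelled one. The ratio was 333 (exact 95% counting interval 113 to 1618). Igfbp3 was at 15.3 and 2.56 CPM in the knockout-labelled libraries, a spread that the interval leaves out. Igfbp7, a related secreted protein, was at 9.86 and 24.7 CPM against 55.8 and 96.4 CPM (2.14 ± 0.51, adjusted p = 0.0226; 0.149 without WT rep1 and 0.124 without KO rep2). Igf2bp2 codes for an RNA-binding protein of Igf2 mRNA and was at 1.7 and 1.24 CPM against 28.5 and 35.7 CPM, with tight replicates (4.44 ± 0.27, adjusted p = 7.9e-06). Igf2r, the receptor that removes IGF2 from the surface, was at 111 and 90.2 CPM against 215 and 212 CPM (1.09 ± 0.18, adjusted p = 0.00264). Igfbp5 differed more between replicates than any of these, at 22.6 and 2.17 CPM against 540.0 and 40.7 CPM, and did not pass (4.55 ± 1.70, adjusted p = 0.124; 0.0052 with DESeq2). Igf2, the growth factor, stayed under 2 CPM in every library, at 1.76 and 0.21 CPM against 0.99 and 0.175 CPM. Between 4 and 5 members rose without any 1 library.

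**Figure D2:**
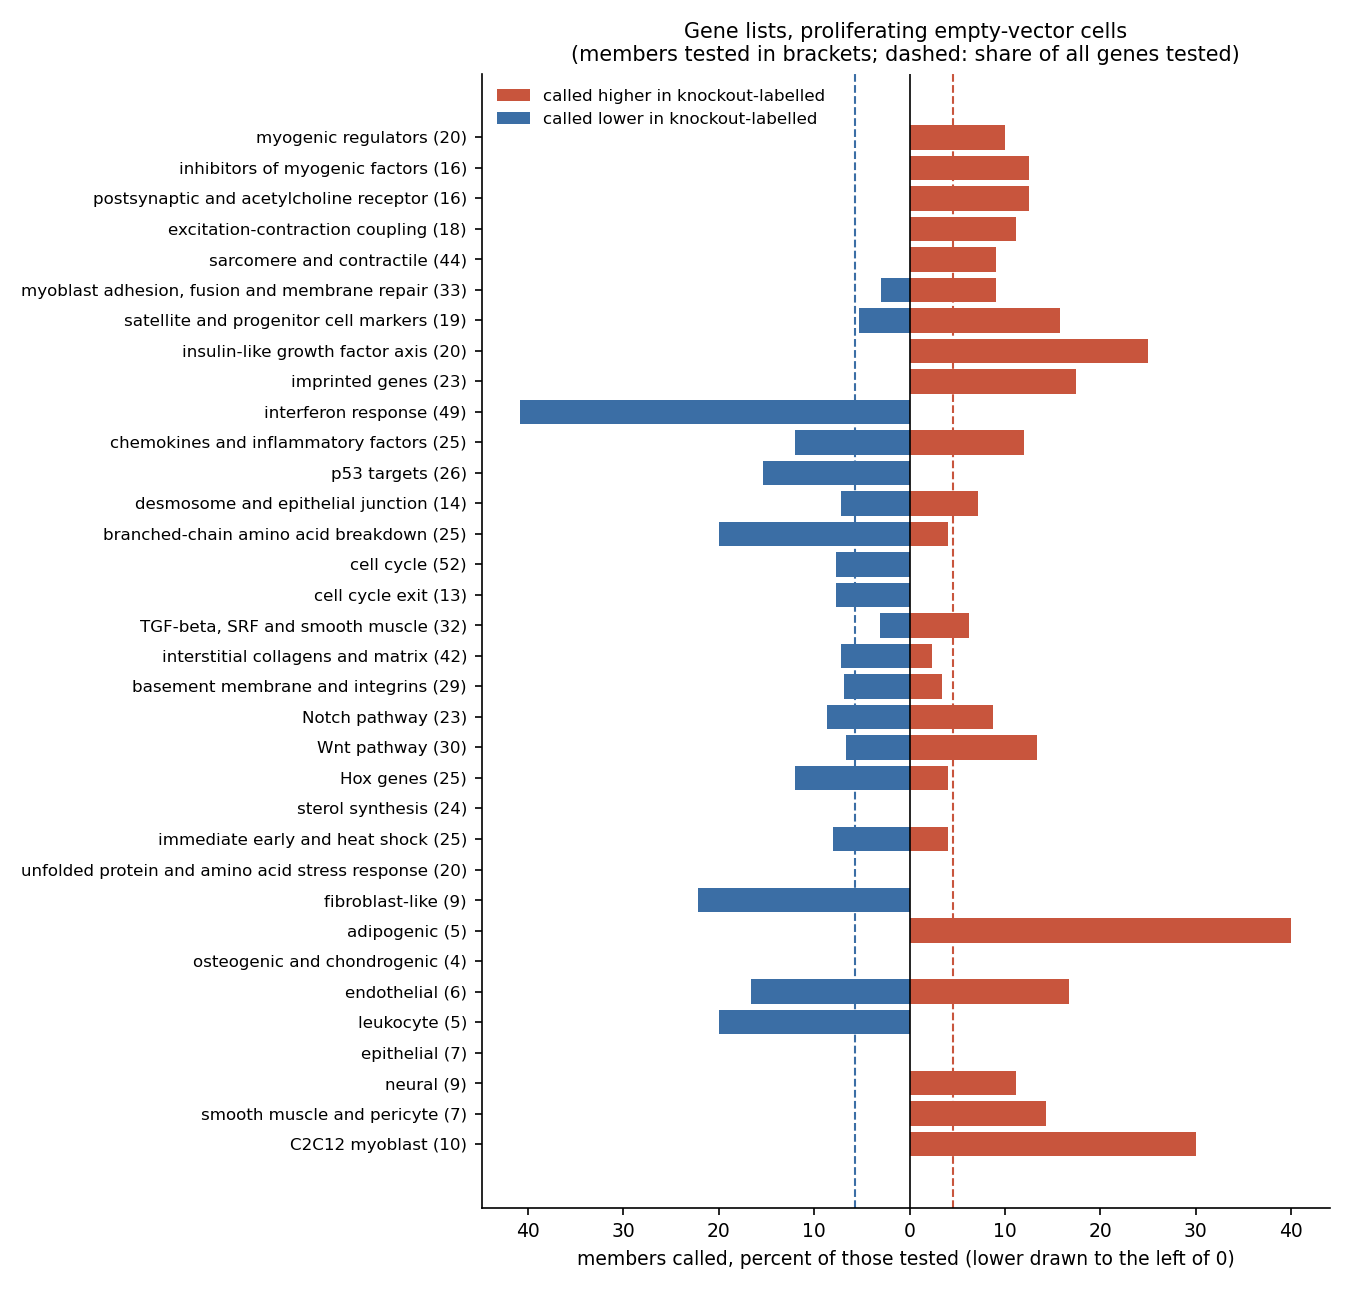
Share of tested members of each of 34 lists (tested number in brackets) that rose (red, to the right of 0) or fell (blue, to the left) in the knockout-labelled libraries, in percent. Dashed lines mark the shares of all genes tested, 4.58% higher and 5.77% lower. The interferon response has the longest blue bar, 40.8% of 49 members, and among the 25 pathway lists the IGF axis has the longest red bar, 25% of 20.

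Genes of the interferon response were lower in the knockout-labelled libraries. Of 49 members, all tested, 20 fell (40.8%, against 5.77% of all genes) and none rose, 47 had a log2 fold change below 0, and the median was -1.36. Interferon made by infected or stressed cells acts through STAT and IRF factors on these genes, whose products block viruses and present antigens. Isg15, a ubiquitin-like protein that is attached to other proteins, was at 11.6 and 5.36 CPM in the WT-labelled and 1.15 and 0.426 CPM in the knockout-labelled libraries. All 4 values were low, and the groups were apart (-3.44 ± 0.45, adjusted p = 0.000767; 0.0697 when only the 4 libraries were fitted). Rsad2, viperin, was at 4.29 and 1.53 CPM against 0.214 and 0.0251 CPM (-4.62 ± 1.00, adjusted p = 0.0138; 0.0852 without WT rep1 and 0.118 without KO rep2). Ifitm1, a membrane protein that stops virus entry, was at 22.5 and 34.1 CPM against 2.11 and 3.43 CPM (-3.35 ± 0.45, adjusted p = 0.000839). Oasl2, related to the oligoadenylate synthetases, was at 5.4 and 1.83 CPM against 0.696 and 0.1 CPM (-3.21 ± 0.76, adjusted p = 0.0214; 0.153 without WT rep1 and 0.139 without KO rep2).

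A further 5 members are named after their values were seen, to show other steps of the response. Ifih1, a sensor of double-stranded RNA, was at 19.1 and 8.41 CPM in the WT-labelled and 2.44 and 0.877 CPM in the knockout-labelled libraries (-3.06 ± 0.70, adjusted p = 0.0179; 0.113 without WT rep1 and 0.127 without KO rep2). Ifit1, which binds viral RNA, was at 28.1 and 16.1 CPM against 4.58 and 1.5 CPM (-2.87 ± 0.52, adjusted p = 0.00524). When only the 4 libraries were fitted, its adjusted p was 0.0901. Ifitm3, a neighbour of Ifitm1 on chromosome 7, was at 259 and 308 CPM against 91.1 and 96.4 CPM (-1.60 ± 0.14, adjusted p = 5.75e-05). H2-K1 and H2-D1, the classical class I histocompatibility genes that present peptides to T cells, had close replicates. H2-K1 was at 42.9 and 43.7 CPM against 19.3 and 19.5 CPM (-1.16 ± 0.15, adjusted p = 0.00063), and H2-D1 fell by a like amount, from 45.6 and 45.4 CPM to 18.7 and 21.4 CPM (-1.18 ± 0.17, adjusted p = 0.00105). Irf7, a transcription factor of the response, was at 1.47 and 0.515 CPM against 0.616 and 0.376 CPM and did not pass (adjusted p = 0.229). Ifitm and class I genes have close paralogs, between which the authors' counting may have divided reads.

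The number of interferon members called depended on single libraries: it was 8 without WT rep1 and 7 without KO rep2, and 19 and 16 without the other two. WT rep1 was above WT rep2 for Isg15, Rsad2, Oasl2, Ifih1 and Ifit1, and KO rep1 above KO rep2. With limma on log2(TPM + 1), 13 members fell. Of the 20, 4 lie on chromosome 11 (Ifi35, Dhx58, Irgm1 and Trim25), where lower calls were frequent, as described below; 16 of the 41 members on other chromosomes fell, with a median of -1.60. Markers of leukocytes, which also express many of these genes, summed to 3.06 and 4.44 CPM in the WT-labelled and 2.11 and 5.21 CPM in the knockout-labelled libraries, so that these sums overlapped.

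The starts of Isg15, Ifit1 and Rsad2 are shown because these genes fell together and hold letters of the element through which interferon acts. The letters are again the 250 bases before the start on the gene's strand (minus for Isg15 and Rsad2, plus for Ifit1) from RefSeq, GRCm38.p6. Capitals mark matches to GAAA followed after any 2 bases by GAAA, the core of the interferon-stimulated response element, on either strand, and overlapping matches were counted.
Isg15, chr4:156200819-156201068: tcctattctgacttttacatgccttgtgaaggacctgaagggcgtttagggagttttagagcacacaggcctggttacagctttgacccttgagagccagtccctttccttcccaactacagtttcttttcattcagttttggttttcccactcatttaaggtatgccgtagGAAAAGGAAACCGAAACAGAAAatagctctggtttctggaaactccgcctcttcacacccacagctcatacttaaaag
Ifit1, chr19:34640639-34640888: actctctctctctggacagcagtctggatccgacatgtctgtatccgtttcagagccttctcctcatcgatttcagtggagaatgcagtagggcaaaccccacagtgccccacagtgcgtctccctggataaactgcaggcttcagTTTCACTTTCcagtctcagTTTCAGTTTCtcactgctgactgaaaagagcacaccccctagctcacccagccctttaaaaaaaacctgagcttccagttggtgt
Rsad2, chr12:26456453-26456702: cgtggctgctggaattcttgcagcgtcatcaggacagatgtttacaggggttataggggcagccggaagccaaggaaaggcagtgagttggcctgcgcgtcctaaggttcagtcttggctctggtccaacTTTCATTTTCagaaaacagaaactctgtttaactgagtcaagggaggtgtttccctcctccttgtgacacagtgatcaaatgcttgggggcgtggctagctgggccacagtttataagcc
Isg15 held overlapping matches at 78, 72 and 66 bases before the start, Ifit1 held matches at 104 and 85, and Rsad2 held 1 at 120. Of the 27025 genes with a window, 3.46% held the letters, as did 3.22% of the 11722 tested genes with a window. The letters occurred in 17 of the 39 interferon members with a window (43.6%). They occurred in 7 of the 18 members with a window that fell (38.9%) and in 10 of the 21 not called (47.6%).

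**Figure D3:**
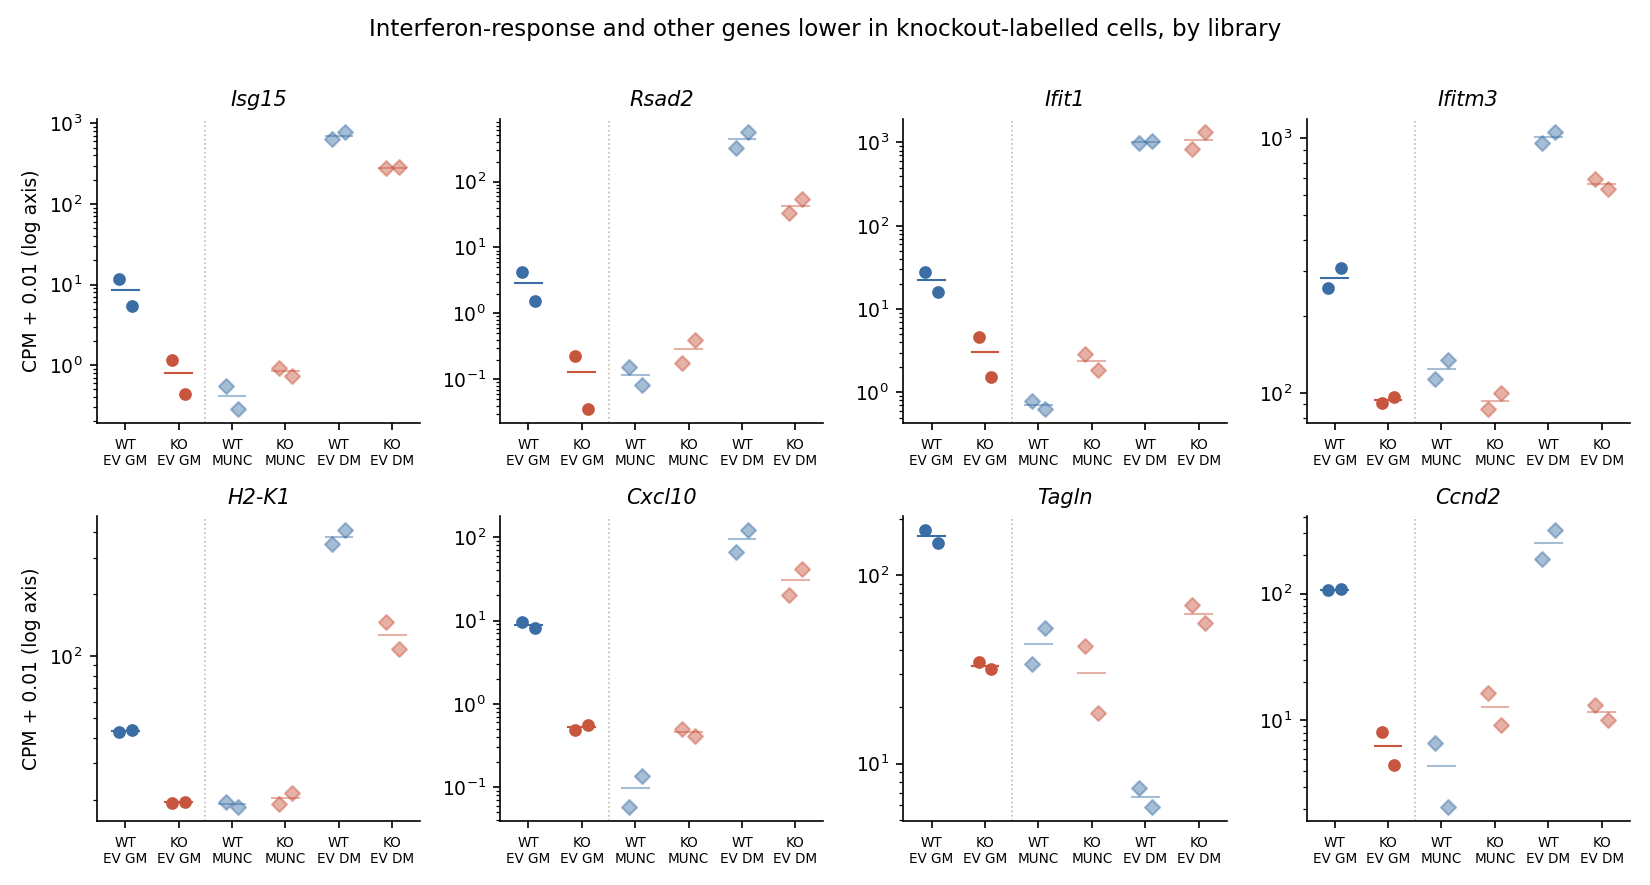
Level in CPM (log axis, 0.01 added) of 8 genes that fell, by library, with colours and symbols as in the plot of muscle genes and bars at the mean of each pair. In the circles, the proliferating empty-vector cells, both blue values lie above both red ones in each panel, as for H2-K1 at 42.9 and 43.7 CPM against 19.3 and 19.5 CPM. Ifit1 reaches 979 CPM and 1055 CPM in the WT-labelled differentiating cells, far above its proliferating level.

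Chemokines and inflammatory factors moved both ways, with 3 of 25 tested higher and 3 lower, where 4.58% and 5.77% of all genes were. Those that fell were Cxcl10 and Ccl5, which draw T cells and are themselves induced by interferon, and Lif, a cytokine of the interleukin-6 family. Cxcl10 was at 9.54 and 8.16 CPM in the WT-labelled and 0.482 and 0.551 CPM in the knockout-labelled libraries (-4.09 ± 0.51, adjusted p = 0.000545). Ccl5 was at 9.78 and 7.55 CPM against 0.669 and 0.351 CPM (-4.09 ± 0.70, adjusted p = 0.00375). For both, the lowest WT-labelled value was above 7 CPM and the highest knockout-labelled one below 1 CPM. Lif was at 5.53 and 6.79 CPM against 2.27 and 3.23 CPM (-1.16 ± 0.28, adjusted p = 0.0253), with an adjusted p between 0.0542 and 0.153 with each of the 4 libraries left out in turn. Ccl5 and Lif lie on chromosome 11. Cxcl1, a neutrophil chemokine, was at 4.85 and 4.77 CPM against 12.6 and 43.3 CPM, with KO rep2 highest (2.54 ± 0.51, adjusted p = 0.00904; 0.0694 without WT rep1, 0.0725 without WT rep2 and 0.0623 without KO rep2). Cx3cl1, a membrane-bound chemokine, rose by 2.01 on the log2 scale and was called in none of the fits without WT rep1, WT rep2 or KO rep2. Ccl8, which attracts monocytes, rose by 1.69 and was called in none of the 4 fits with a library left out. With 1 library left out, 3 members of the list were called without WT rep1, 2 without WT rep2 or KO rep2, and 6 without KO rep1.

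Of 26 targets of p53, 4 fell (5.77% of all genes did) and none rose. Of the 26, 24 had a log2 fold change below 0, as did 53.7% of all genes, and the median was -0.38. Perp, a p53 target and a protein of the desmosome, was nearly silent in the knockout-labelled libraries, at 24.8 and 19 CPM against 0 and 0.0251 CPM. It had 2526 counts in the WT-labelled group and 1 in the knockout-labelled one, a ratio of 1708 (exact 95% counting interval 306 to 67486). Cdkn1a, the cell cycle inhibitor p21, was at 241 and 215 CPM against 153 and 123 CPM (-0.72 ± 0.20, adjusted p = 0.0461). That call was lost in each fit with a library left out, with an adjusted p between 0.0741 and 0.274 with each of the 4 libraries left out in turn. Tigar and Ei24 fell by 0.72 and 0.62 on the log2 scale, and Tigar was not called with any 1 of the 4 libraries left out. Cdkn1a was also the 1 of 13 genes of cell cycle exit that changed. Without WT rep1, WT rep2 or KO rep2 only 1 of the 4 p53 targets was called.

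Genes of the cell cycle changed little. Among 52 tested, 4 fell (7.69%, against 5.77% of all genes), none rose, and the median was -0.10. Ccnd2, cyclin D2, which drives cells out of G1, was at 106 and 108 CPM in the WT-labelled and 8.03 and 4.44 CPM in the knockout-labelled libraries (-4.11 ± 0.56, adjusted p = 0.00089). Its relative Ccnd1, cyclin D1, was also lower in both knockout-labelled libraries, at 586 and 705 CPM against 296 and 421 CPM, and did not pass (-0.85 ± 0.25, adjusted p = 0.0532; 0.0314 with limma and 0.0178 with DESeq2). Mki67, the proliferation marker, was at 510.0 and 556 CPM against 519 and 414 CPM, with overlapping groups (-0.19 ± 0.21, adjusted p = 0.651; 0.01 on the log2 scale without KO rep2). Mcm3, a subunit of the replicative helicase, was at 351 and 355 CPM against 193 and 237 CPM (-0.72 ± 0.17, adjusted p = 0.0206; 0.0824 without WT rep1, 0.0908 without WT rep2 and 0.135 without KO rep1). Cdc6, which loads that helicase, and Aurkb, a mitotic kinase, fell by 0.69 and 0.60 on the log2 scale, both lie on chromosome 11, and neither was called with any 1 of the 4 libraries left out. In those fits, 1 or 2 members of the list were called.

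Enzymes that break down branched-chain amino acids fell in 5 of 25 tested (20%, against 5.77% of all genes). In 1 they rose, where 4.58% of all genes did. Bckdhb, a subunit of the branched-chain keto acid dehydrogenase, the committed step of the pathway, had 778 and 547 counts in the WT-labelled libraries and 0 in both knockout-labelled ones. It was at 12.6 and 10.4 CPM against 0 CPM, at least 299-fold lower against a floor of 3 counts over the group, with an adjusted p of 0.00021. The other changes were small. Pccb, a subunit of propionyl-CoA carboxylase, fell by 0.63 on the log2 scale, and Hsd17b10 and Acad8, dehydrogenases of the pathway of which Acad8 was named after its values were seen, by 0.43 and 0.42. Mccc1, a carboxylase of leucine breakdown, rose from 18.3 and 16.8 CPM to 23.3 and 25.6 CPM (0.48 ± 0.14, adjusted p = 0.049), with an adjusted p between 0.0946 and 0.228 with each of the 4 libraries left out in turn. Without 1 library, between 1 and 3 members were called (2 without WT rep1, 1 without WT rep2, 3 without KO rep1 and 1 without KO rep2), and Bckdhb was among those called each time.

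Targets of TGF-beta and SRF and smooth muscle genes gave opposite results for 2 actin-associated proteins. Tagln, transgelin (SM22), was at 174 and 148 CPM in the WT-labelled and 34.4 and 31.6 CPM in the knockout-labelled libraries (-2.28 ± 0.39, adjusted p = 0.00346). Synpo2, myopodin, which binds actin at the Z-disc, was at 1.76 and 1.41 CPM against 20.5 and 12.9 CPM (3.39 ± 0.40, adjusted p = 0.000375). Tgfbi, a secreted protein named after its values were seen, had 2 and 20 counts in the groups, a ratio of 14.8 (exact 95% counting interval 3.59 to 131). Acta2, smooth muscle actin, was at 1371 and 1451 CPM against 881 and 696 CPM and did not pass (-0.84 ± 0.49, adjusted p = 0.334). In all, 2 of 32 rose and 1 fell, with a median of -0.20, where 4.58% of all genes rose and 5.77% fell.

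Of 42 genes of the interstitial matrix, 3 fell and 1 rose, where 5.77% and 4.58% of all genes did. Of them 32 had a log2 fold change below 0, as did 53.7% of all genes, and the median was -0.37. Fbln5, fibulin 5, which assembles elastic fibres, was at 12.5 and 14.9 CPM in the WT-labelled and 1.42 and 1.13 CPM in the knockout-labelled libraries (-3.43 ± 0.54, adjusted p = 0.00233). Bgn, the proteoglycan biglycan, was at 1581 and 1653 CPM against 947 and 939 CPM (-0.78 ± 0.20, adjusted p = 0.0299), with an adjusted p between 0.0975 and 0.157 with each of the 4 libraries left out in turn. Fbn1, fibrillin 1, fell by 0.83 on the log2 scale and was not called with any 1 of the 4 libraries left out. Mmp2, a gelatinase, was at 25.8 and 11 CPM against 123 and 51.8 CPM (2.24 ± 0.64, adjusted p = 0.0482; 0.0769 without WT rep1, 0.26 without WT rep2 and 0.244 without KO rep1). Without WT rep1 or WT rep2 only 1 member was called, and without KO rep1 or KO rep2 there were 2.

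Integrins and the basement membrane changed in 3 of 29 tested members, where 10.4% of all genes did. Itgb4, the laminin receptor subunit of hemidesmosomes, was at 13.2 and 22.7 CPM in the WT-labelled and 2.7 and 3.26 CPM in the knockout-labelled libraries (-2.59 ± 0.35, adjusted p = 0.000839). Itgb3, a subunit of the vitronectin receptor, was at 69.7 and 45.1 CPM against 12.9 and 4.69 CPM (-2.71 ± 0.46, adjusted p = 0.00332). When only the 4 libraries were fitted, its adjusted p was 0.0808. Itgb4 and Itgb3 both lie on chromosome 11. Col4a5, a chain of type IV collagen, rose from 21.2 and 16.4 CPM to 91.1 and 42.5 CPM (1.83 ± 0.44, adjusted p = 0.0229; 0.0875 without WT rep1, 0.15 without WT rep2 and 0.157 without KO rep1). Of 14 genes of desmosomes and epithelial junctions, Perp fell and F11r rose, where 5.77% and 4.58% of all genes did. F11r, the junctional adhesion molecule A, was at 0.453 and 0.153 CPM against 3.51 and 3.76 CPM (3.55 ± 0.58, adjusted p = 0.00278).

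In the Wnt pathway 4 of 30 tested members rose (13.3% against 4.58% of all genes) and 2 fell, where 5.77% of all genes did. The receptors Fzd1 and Lrp5 bind Wnt proteins together. Fzd1 was at 16 and 16.4 CPM in the WT-labelled and 37.4 and 38.9 CPM in the knockout-labelled libraries (1.24 ± 0.16, adjusted p = 0.000596). Lrp5 was at 30.2 and 28.2 CPM against 58.1 and 54.8 CPM (0.95 ± 0.15, adjusted p = 0.00258). Lef1, the DNA-binding partner of beta-catenin, was at 4.38 and 4.23 CPM against 10.1 and 9.22 CPM (1.17 ± 0.15, adjusted p = 0.000707; 0.0565 when only the 4 libraries were fitted). The receptor Fzd8, named after its values were seen, had 3 and 23 counts in the groups, a ratio of 11.3 (exact 95% counting interval 3.43 to 59). Axin2, a target and inhibitor of the pathway, moved the other way, from 2.47 and 2.8 CPM to 0.723 and 0.476 CPM (-2.14 ± 0.42, adjusted p = 0.00854; 0.0875 without KO rep2). The ligand Wnt9a was at 17.1 and 8.3 CPM against 4.98 and 3.91 CPM (-1.52 ± 0.31, adjusted p = 0.01; 0.0822 without WT rep1 and 0.0916 without KO rep2). Axin2 and Wnt9a, the 2 that fell, are both on chromosome 11. Without 1 library, between 4 and 7 members were called.

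The Notch pathway, which holds muscle progenitors undifferentiated, had 2 of 23 tested members higher and 2 lower, where 4.58% and 5.77% of all genes were. Dll1, a ligand of the pathway that was named after its values were seen, was at 0.162 and 0.0381 CPM in the WT-labelled and 1.55 and 2.03 CPM in the knockout-labelled libraries (4.09 ± 0.49, adjusted p = 0.00042). Nrarp, a Notch target that feeds back on it and was also named after its values were seen, rose from 0.0809 and 0.0381 CPM to 0.241 and 0.426 CPM. Maml2, a coactivator, fell from 21.6 and 24.4 CPM to 12.4 and 7.64 CPM (-1.20 ± 0.25, adjusted p = 0.012; 0.0725 without WT rep2 and 0.109 without KO rep2). Rfng, which adds sugars to Notch and lies on chromosome 11, fell by 0.55 and was not called without WT rep2, KO rep1 or KO rep2 (adjusted p 0.122, 0.101 and 0.097). The list gave 1 call without WT rep2 or KO rep2. Hox genes keep the positional identity of cells. Of 25 tested, 3 fell and 1 rose, where 5.77% and 4.58% of all genes did, and all were named after their values were seen. Hoxb3, Hoxb5 and Hoxb6, neighbours on chromosome 11, were low in the knockout-labelled libraries. Hoxb3 was at 1.52 and 1.26 CPM against 0.0803 and 0.0752 CPM (-4.13 ± 0.84, adjusted p = 0.0102; 0.0663 without KO rep1 and 0.0819 without KO rep2), and Hoxb6 at 0.97 and 1.47 CPM against 0.0268 and 0.0752 CPM (-4.51 ± 0.73, adjusted p = 0.00268). Hoxb5 had 46 and 1 counts in the groups, a ratio of 31.1 (exact 95% counting interval 5.31 to 1255) in the other direction of the labels (WT-labelled over knockout-labelled). Hoxc12, on chromosome 15, had 2 and 49 counts, a ratio of 36.2 (exact 95% counting interval 9.51 to 308) of the knockout-labelled over the WT-labelled group. With KO rep1 or KO rep2 left out, 2 Hox genes were called.

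Imprinted genes are expressed from 1 parental copy. Of 23 tested, 4 rose (17.4%, against 4.58% of all genes) and none fell, with a median of 0. Besides Peg3 and Igf2r, given above, these were Peg13 and Mkrn3. Peg13, a noncoding RNA, was at 3.02 and 1.93 CPM in the WT-labelled and 12.4 and 11 CPM in the knockout-labelled libraries (2.24 ± 0.26, adjusted p = 0.00037). Mkrn3, a ubiquitin ligase, was at 1.05 and 1.22 CPM against 2.89 and 2.63 CPM (1.28 ± 0.27, adjusted p = 0.0113; 0.0906 without WT rep1, 0.0529 without WT rep2 and 0.0576 without KO rep1). Without WT rep1, WT rep2 or KO rep1 the count was 2. Of 25 immediate early and heat shock genes 2 fell and 1 rose, where 5.77% and 4.58% of all genes did. The Krüppel-like factor Klf4 was at 16.6 and 18 CPM against 8.75 and 6.84 CPM (-1.15 ± 0.19, adjusted p = 0.00265). Egr3 fell by 2.01 on the log2 scale and was called neither without WT rep1 (adjusted p 0.151) nor without KO rep1 (0.133) or KO rep2 (0.112). The small heat shock gene Hspb8 rose from 44 and 37.8 CPM to 91.9 and 71.3 CPM (1.00 ± 0.16, adjusted p = 0.00233). When only the 4 libraries were fitted, the adjusted p was 0.073 for Klf4 and 0.0682 for Hspb8. No gene of sterol synthesis (24 tested) or of the unfolded protein and amino acid stress response (20 tested) passed, and their medians were 0.17 and -0.10.

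The largest changes were mostly in genes outside these lists. They were taken by size, among called genes whose mean level reached 5 CPM. Igsf11, an adhesion molecule of the immunoglobulin family, was at 0.0485 and 0.0763 CPM in the WT-labelled and 36 and 58.2 CPM in the knockout-labelled libraries (9.54 ± 0.72, adjusted p = 2.31e-05). Ptprd, a receptor tyrosine phosphatase, was at 0.275 and 0.133 CPM against 53.3 and 61.2 CPM (8.09 ± 0.64, adjusted p = 2.89e-05). Both genes were at 0.275 CPM or less in both WT-labelled libraries and at 36 CPM or more in both knockout-labelled ones. Hhip, which binds hedgehog proteins and limits their signal, was at 0.323 and 0.362 CPM against 25.8 and 29.4 CPM (6.33 ± 0.28, adjusted p = 1.12e-06). Zfp704, a zinc finger gene, was at 0.113 and 0.133 CPM against 12 and 13.6 CPM (6.68 ± 0.36, adjusted p = 4.81e-06). Zfp518b and Pdlim3 had 2 counts each in the WT-labelled group against 914 and 1153 in the knockout-labelled one. For Zfp518b the ratio was 676 (exact 95% counting interval 187 to 5589). Pdlim3, a Z-disc protein of muscle, differed widely between KO rep1 and KO rep2 (28.7 and 2.05 CPM), and its adjusted p of 0.0293 became 0.159 without WT rep1, 0.167 without WT rep2 and 0.176 without KO rep1.

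The same rule named the semaphorins Sema6a and Sema3c, which guide migrating cells, and the protease inhibitor Serpinb6b. Sema3c was at 3.67 and 0.477 CPM in the WT-labelled and 290.5 and 58.9 CPM in the knockout-labelled libraries (6.38 ± 1.26, adjusted p = 0.00844; 0.0645 without WT rep2). Sema6a was at 0.194 and 0.0191 CPM against 44.6 and 10.4 CPM (7.91 ± 1.45, adjusted p = 0.00551; 0.0605 without WT rep2). In both semaphorins rep1 was above rep2 under either label. Serpinb6b was at 0.113 and 0.0381 CPM against 22.7 and 12.4 CPM (7.77 ± 0.98, adjusted p = 0.000566).

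On the lower side, Slc4a4, a sodium bicarbonate cotransporter, was at 16.4 and 12.8 CPM in the WT-labelled and 0.589 and 0.251 CPM in the knockout-labelled libraries (-5.12 ± 0.80, adjusted p = 0.0022). Snx10, a sorting nexin of endosomes, was at 17.5 and 15.4 CPM against 0.856 and 0.376 CPM (-4.74 ± 0.35, adjusted p = 2.31e-05). Emb, embigin, a partner of lactate transporters, was at 10.9 and 10.2 CPM against 0.642 and 0.0752 CPM (-4.88 ± 1.03, adjusted p = 0.0119; 0.0825 without KO rep2). Values of the WT-labelled pair were close for these 3 genes. Ccnb1ip1, which codes for a ubiquitin ligase of cyclin B, was at 33.2 and 39.1 CPM against 2.11 and 2.63 CPM (-3.93 ± 0.41, adjusted p = 0.000183). U90926 was higher in rep2 under either label, at 15.4 and 140.0 CPM against 0.214 and 2.36 CPM (-5.90 ± 1.67, adjusted p = 0.0462; 0.291 without WT rep2, 0.186 without KO rep1 and 0.0994 without KO rep2).

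Markers of 8 other cell types were summed in each library, and their part in the results above was not tested. Between 4 and 9 members of each list were tested, so that 1 call is already a large share. Of all genes, 4.58% rose and 5.77% fell. Fibroblast-like markers summed to 3330 and 1308 CPM in the WT-labelled and 2713 and 1050 CPM in the knockout-labelled libraries, a difference by replicate number, and 2 of 9 tested fell (Pdgfra and Cd248), neither of which was called with any 1 of the 4 libraries left out. Adipogenic markers summed to 6.48 and 9.02 CPM against 21.7 and 24.96 CPM. Most of this sum was Pparg, the master regulator of fat cells, at 5.09 and 7.46 CPM against 19.7 and 23.5 CPM (1.78 ± 0.24, adjusted p = 0.000885), and Fabp4, a fatty acid binding protein named after its values were seen, rose at levels under 1 CPM. At most 4 of the 10 adipogenic members had 0 counts in a library, and only 1 reached 1 CPM. Endothelial markers summed to between 3.02 and 5.16 CPM, with Cdh5 higher and Egfl7 lower, and leukocyte markers to between 2.11 and 5.21 CPM, with Lyz2 lower, both overlapping between labels. Epithelial markers summed to 14.7 and 24.2 CPM in the WT-labelled and 12 and 11.6 CPM in the knockout-labelled libraries, with no call. Neural markers summed to between 152 and 344 CPM, with Mbp higher, and osteogenic and chondrogenic ones to between 101 and 160.5 CPM with no call. Smooth muscle and pericyte markers summed to between 47.2 and 107 CPM, with Synpo2 higher. With a library left out, the endothelial list gave 1 call without KO rep1 and none otherwise, the leukocyte list none, and the neural list its call without KO rep2 alone. Cdh5, Egfl7 and Lyz2 were named after their values were seen.

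Genes that fell were not spread evenly over the genome. Chromosome 11 held 8.25% of the genes tested and 27.4% of those that fell, 237 of 1235 (19.2%, against 4.56% on all other chromosomes), while 20 of its genes rose. The median log2 fold change there was -0.36, and it was -0.31 and -0.29 within the first and the second replicates. No other chromosome had a median below -0.17 or above 0.19. The change began part of the way along the chromosome. In bins of 50 genes the first 6 medians lay between -0.14 and 0.11, and all 18 later ones between -0.51 and -0.34. Levels of chromosome 11 genes relative to the mean of the 8 proliferating libraries were 0.26 and 0.28 (median, log2) in the WT-labelled libraries and -0.11 and -0.06 in the knockout-labelled ones. They were 0.12 and 0.24 in the WT-labelled differentiating empty-vector cells, and between -0.11 and -0.04 in the other 10 libraries. Most changes there were small: 64.1% of the lower calls were under 2-fold, against 39.4% on other chromosomes. The chromosome 11 genes called lower numbered 124 without WT rep1, 96 without WT rep2, 106 without KO rep1 and 86 without KO rep2, and the median stayed between -0.37 and -0.33. The lower calls of several lists sit on this chromosome, as given above: all of those of the Hox, Wnt and integrin lists, and Cdc6, Aurkb, Ccl5, Lif, Rfng and Sgca. Without chromosome 11 there were 666 higher and 627 lower genes.

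A block of neighbours on chromosome 5 (8567091 to 9161806) fell together. Abcb1b, a multidrug transporter, was at 1212 and 1641 CPM in the WT-labelled and 46.9 and 64.2 CPM in the knockout-labelled libraries (-4.68 ± 0.31, adjusted p = 1.41e-05). Crot, a peroxisomal carnitine acyltransferase, was at 696 and 613 CPM against 47.1 and 26.8 CPM (-4.15 ± 0.32, adjusted p = 2.31e-05), and the membrane protein gene Tmem243 at 96.9 and 118 CPM against 5.33 and 6.39 CPM (-4.20 ± 0.19, adjusted p = 1.12e-06). The other members of the block were named after their values were seen. Abcb1a, a close paralog of Abcb1b, was at 3.27 and 4.46 CPM against 0.0268 and 0.125 CPM (-5.61 ± 0.66, adjusted p = 0.000362), and Dmtf1, a transcription factor gene at the end of the block, at 104 and 102 CPM against 41.5 and 38.4 CPM (-1.36 ± 0.13, adjusted p = 0.000108). Abcb4, a phospholipid transporter between Abcb1b and Crot, had 33 counts in the WT-labelled group and 0 in the knockout-labelled one, at least 7.44-fold lower. The next genes on either side, Slc25a40 and Dbf4 before the block and Elapor2 after it, were not called. In the MUNC cells none of the block changed by label, and both labels were low: Abcb1b was at 43.4 and 40.3 CPM against 50.7 and 64.2 CPM. In the differentiating empty-vector cells it was at 224 and 413 CPM against 10.9 and 10.04 CPM. On chromosome 9, Sh3bgrl2 (15.1 and 14.6 CPM against 0.268 and 0.451 CPM; -5.35 ± 0.47, adjusted p = 5.59e-05) and Bckdhb are near each other, and the genes between them, Elovl4 and Ttk, were not called. Among genes with a mean of at least 1 CPM, 8 runs of 4 or more neighbours called in 1 direction were found, 4 of them on chromosome 11.

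**Figure D4:**
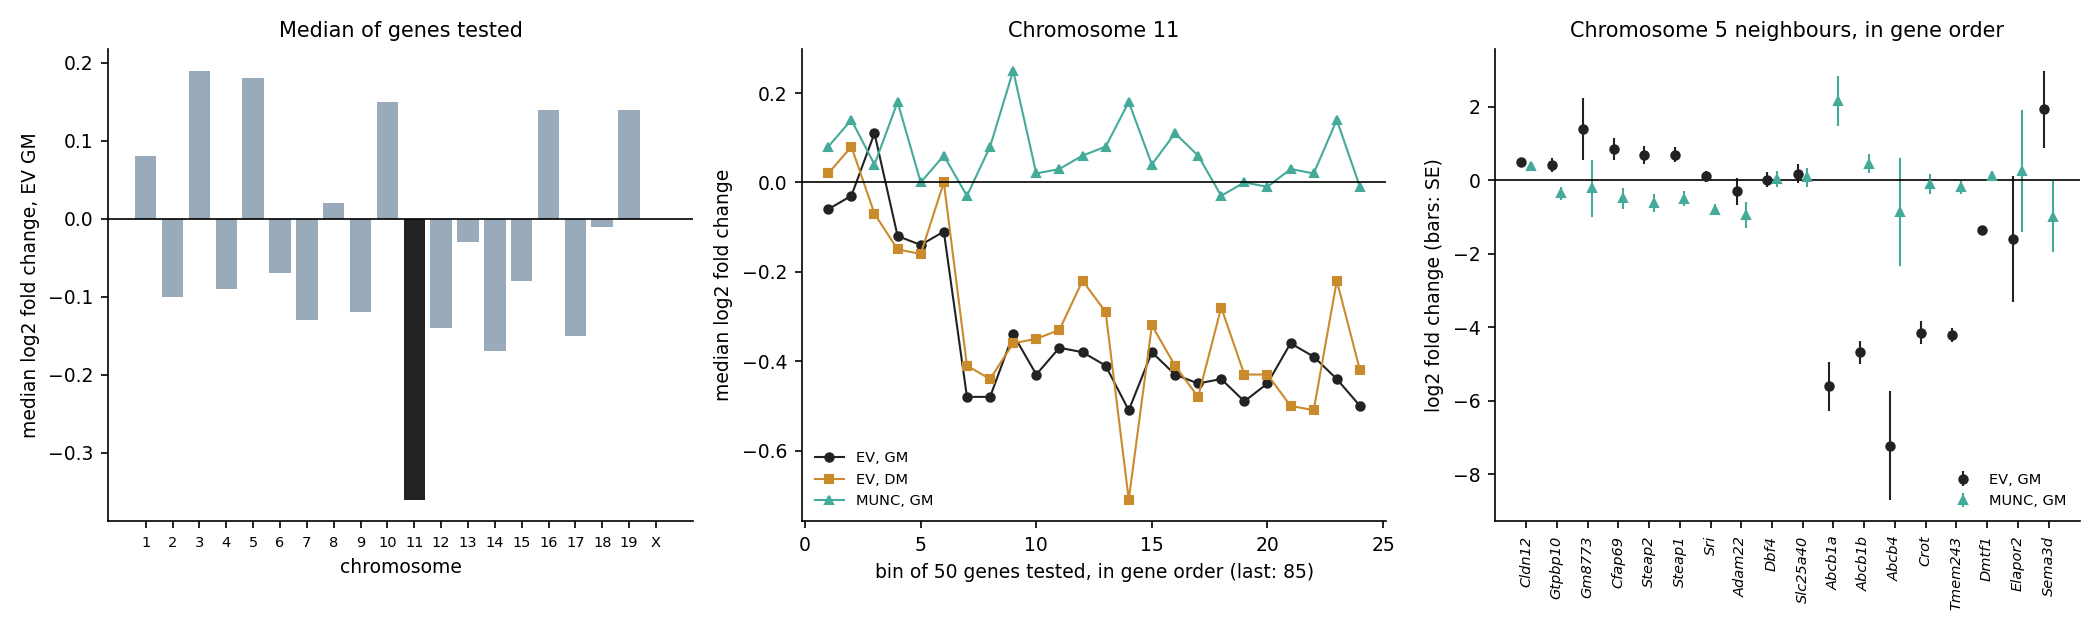
Left, median log2 fold change of the genes tested on each chromosome in proliferating empty-vector cells, where chromosome 11 (black) stands at -0.36. Middle, medians along chromosome 11 in bins of 50 genes for 3 genotype comparisons, with the empty-vector cells low after the sixth bin and the MUNC cells not. Right, log2 fold changes with SE bars of the chromosome 5 genes in order, where Abcb1a to Dmtf1 fell in empty-vector cells (black) and not in MUNC cells (green); the point of Abcb4, with 0 counts in the knockout-labelled group, is a fitted value and no bound.

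The same label comparison can be made in 2 other pairs of groups that share no library with this one. In proliferating MUNC cells 1496 genes (9.99%) differed by label, 745 higher and 751 lower, and in differentiating empty-vector cells 4699 (31.4%), 2289 higher and 2410 lower. Of the 1550 genes called in proliferating empty-vector cells, 428 were also called in the same direction in the MUNC cells (27.6% of the 1550 and 28.6% of the 1496), and 1116 in the differentiating cells (72.0% of the 1550 and 23.7% of the 4699). The difference between the comparisons was tested gene by gene. It passed for 738 genes between the vectors (4.93%), 438 of them among the 1550 (28.3%), and for 387 between the media (2.58%), 90 of them among the 1550 (5.81%).

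Myod1 was one of the genes whose label difference depended on the vector. In the MUNC cells it was at 3.72 and 4.06 CPM in the WT-labelled and 8.17 and 4.18 CPM in the knockout-labelled libraries (0.67 ± 0.55, adjusted p = 0.508), so that the WT-labelled cells with MUNC were above those with the empty vector. The difference between the comparisons was 5.63 ± 0.91 (adjusted p = 0.00491; 0.0596 with only the 8 libraries of this difference fitted). Dysf was at 2.71 and 3.95 CPM against 4.23 and 4.51 CPM in the MUNC cells, with a difference of 4.18 ± 0.39 (adjusted p = 0.000214). Igf2bp2 was at 50.9 and 60.7 CPM against 36.8 and 49 CPM there (4.82 ± 0.34, adjusted p = 5.67e-05). For Chrna1 and Jph2, the difference between the vectors did not pass (adjusted p = 0.0721 and 0.0725). Dok7, Xirp1, Cd34 and Igfbp2 rose in the MUNC cells too, by 4.29, 5.34, 5.96 and 11.50 on the log2 scale.

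Genes of the interferon response also depended on the vector. In the MUNC cells 1 of the 49 members fell (5.02% of all genes did) and none rose, with a median of 0.41. The difference between the vectors passed for 9 members, all lower in the empty-vector comparison, as it did for 2.76% of all genes in that direction. Isg15 was at 0.538 and 0.271 CPM against 0.916 and 0.73 CPM in the MUNC cells (-4.45 ± 0.67, adjusted p = 0.00309; 0.0793 with only the 8 libraries fitted), and H2-K1 at 19.5 and 18.4 CPM against 19 and 21.5 CPM (-1.25 ± 0.21, adjusted p = 0.00543). In both genes the WT-labelled MUNC cells had the level of the knockout-labelled cells or less. Ifitm1 fell in the MUNC cells as well (-2.36 ± 0.43, adjusted p = 0.00545). In the differentiating empty-vector cells 29 members fell (16.1% of all genes did) and none rose, at far higher levels, with Isg15 at 633 and 774 CPM against 279.7 and 285 CPM (-1.32 ± 0.37, adjusted p = 0.0198). Ccnd2 and Cxcl10 followed the vector as well, with differences of -5.66 ± 0.75 (adjusted p = 0.00145) and -6.46 ± 0.87 (adjusted p = 0.0015).

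Sarcomere genes differed by medium. In differentiating cells 33 of 44 rose by label and none fell, with a median of 4.35, where 15.3% of all genes rose. In proliferating cells 4 rose, where 4.58% of all genes did. The difference between the media passed for 11 members, each lower in the proliferating comparison. Of all genes, 1.66% differed between the media in that direction and 0.922% in the other. Acta1 was at 1.24 and 0.204 CPM against 125 and 119 CPM in the differentiating WT-labelled and knockout-labelled cells, and the difference was -7.30 ± 1.49 (adjusted p = 0.0298). It passed with WT rep1 of the differentiating cells left out, and with any other of the 8 libraries left out its adjusted p was between 0.0657 and 0.12. Tagln changed direction, from a fall in proliferating cells to 7.41 and 5.85 CPM against 69.1 and 56 CPM in differentiating ones (3.24 ± 0.40, adjusted p = 0.000214), a difference of -5.52 ± 0.56 (adjusted p = 0.00136). Bckdhb, Perp and Ccnd2 fell in both media. In differentiating cells Bckdhb was at 8.58 and 9.16 CPM against 0.0959 and 0 CPM, Perp at 17.1 and 17.3 CPM against 0.0192 and 0 CPM, and Ccnd2 at 187 and 317 CPM against 13.2 and 9.99 CPM. In proliferating MUNC cells Bckdhb was nearly silent under both labels, at 0.0317 and 0 CPM against 0 CPM in both knockout-labelled libraries. Its label difference did not pass there (adjusted p = 0.423), nor did that of any p53 target, Perp among them. The difference of Bckdhb between the vectors could not be estimated.

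Itpkb and Epha4 in one direction and Unc5c in the other were among the well expressed genes with the largest differences between the vectors. Itpkb, an inositol trisphosphate kinase, was at 0.0323 and 0 CPM against 6.45 and 5.19 CPM in the empty-vector cells and at 9.11 and 14.2 CPM against 7.51 and 9.09 CPM in the MUNC cells. The ephrin receptor Epha4 was at 0.194 and 0.0381 CPM against 3.13 and 4.21 CPM, and at 13.3 and 21.1 CPM against 2.63 and 2.7 CPM with MUNC, so that the label difference changed sign (-2.69 ± 0.43, adjusted p = 0.00303). The netrin receptor Unc5c was at 28.9 and 32.4 CPM against 3.59 and 3.66 CPM, and at 0.586 and 0.217 CPM against 3.48 and 3.23 CPM with MUNC. In all 3 genes the knockout-labelled cells were at a like level with either vector, and the WT-labelled cells were not. Peg10, an imprinted gene, had no label difference in the empty-vector cells, at 34.4 and 43.5 CPM against 29.9 and 38.2 CPM, and was at 0.19 and 0 CPM against 33.3 and 32.3 CPM in the MUNC cells (-8.52 ± 1.06, adjusted p = 0.00103).

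**Figure D5:**
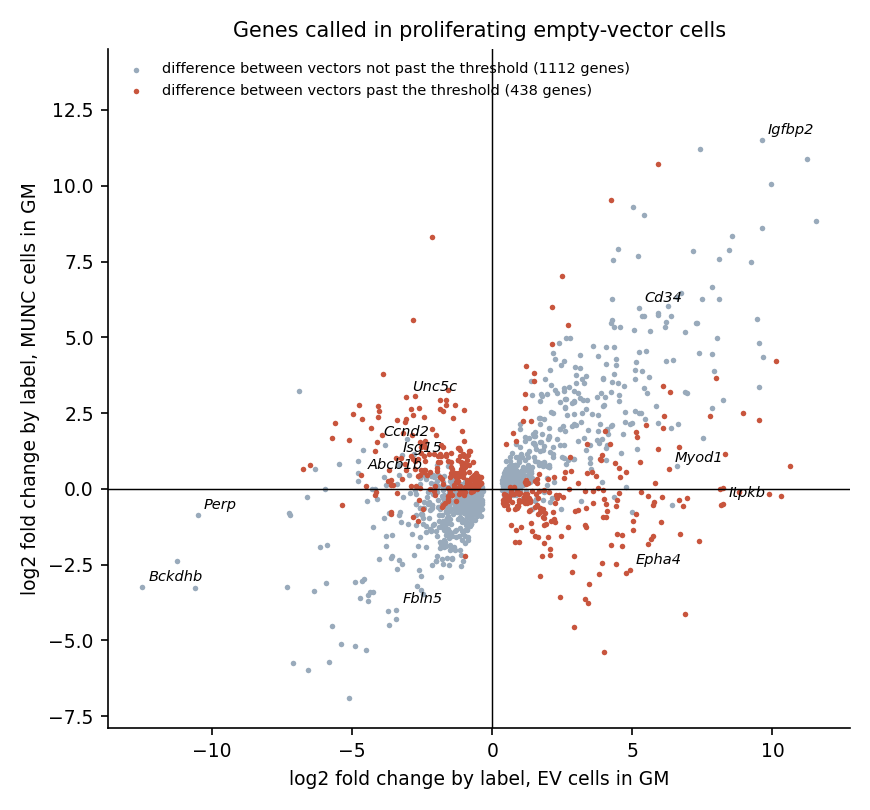
Log2 fold change by label in empty-vector cells (x axis) and in MUNC cells (y axis), both proliferating, for the 1550 genes called in empty-vector cells. Red points are the 438 genes whose difference between the vectors passed the threshold, and blue-grey points the other 1112. Bckdhb is among the latter, and its difference between the vectors could not be estimated, with 0 CPM in the knockout-labelled libraries of both vectors. Igfbp2 and Cd34 lie high on both axes, Itpkb and Myod1 near 0 on the y axis, and Unc5c and Epha4 in quadrants of opposite sign. The gap around 0 on the x axis follows from showing called genes.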

How the data were processed

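Per the labels' protocols and the submitters' processing notes, poly(A) RNA was made into directional libraries, sequenced in pairs and quantified by the authors with kallisto on mm10 (versions not given there). The deposited files give an estimated count, an effective length and a TPM per transcript, per the file headers. No source used here says whether the strand was used in counting, so genes that overlap another on the opposite strand cannot be told apart.

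Here the deposited estimated counts were summed over 24497 genes by RefSeq transcript (35492 of 35818 transcripts matched RefSeq, 188 GENCODE, and 138 had no symbol and held 0.280% to 0.941% of counts per library) and rounded. All 16 libraries entered 1 edgeR 4.0.16 fit (R 4.3.3) with a mean for each of 8 groups, TMM scaling and filterByExpr, which left 14972 genes. Quasi-likelihood tests, with 8 residual degrees of freedom, were Benjamini-Hochberg adjusted over all genes, with a threshold of 0.05. The script was tested on simulated data. Alternatives used DESeq2 1.42.0 and limma 3.58.1 on log2(TPM + 1) from the deposited TPM values; CPM values were computed from the deposited counts. Tables and plots used Python 3.11.15.

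The genes and lists (25 pathway and 9 marker lists, 816 genes) were chosen with earlier results of these data known. Named genes were a fixed panel, the 12 largest changes each way with a mean of at least 5 CPM, up to 4 members of each list each way with at least 1 CPM, and the 4 largest differences each way between comparisons. Genes outside that rule are marked as named after their values were seen, as were the flanking genes on chromosomes 5 and 9 and Musk, Mymx and Irf7. Some genes that the rule names are not reported here.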

Additional observations from a re-analysis of the deposited data

Results flagged for a closer look

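The label difference of 44 reported genes depended on the vector in proliferating cells, and that of 17 depended on the medium in empty-vector cells, by an interaction term of the edgeR fit (adjusted p up to 0.0331 and 0.0487). Values below are the log2 fold change by label in proliferating empty-vector cells minus that in the other cells.

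Against MUNC cells, the muscle and progenitor genes stood at 5.63 for Myod1, 4.18 for Dysf and 6.57 for Cd24a, which changed direction (12.1 and 14.6 CPM against 2.05 and 0.967 CPM in the MUNC cells). In the IGF axis the values were 7.17 for Igfbp3, 4.82 for Igf2bp2 and -1.14 for Igf2r, so that the label difference of the last was larger with MUNC. Pparg was at 2.5, Peg13 at 2.69 and Synpo2 at 2.87, and the Wnt receptors Fzd1 and Lrp5 at 1.65 and 1.32. Among the genes with the largest changes, Igsf11 was at 7.25, Serpinb6b at 5.36, Zfp704 at 5.3 and Hhip at 3.13. Itpkb was at 8.71 (a fitted value that rests on 2 counts in the WT-labelled empty-vector group), Epha4 at 7.6, Galnt18 at 7.49 and Npnt at 7.33. With only the 8 libraries of this difference fitted, the calls of Galnt18, Npnt, Nefm, Myod1 and Isg15 were lost (adjusted p 0.0511 to 0.107), and Npnt's also with limma (0.054).

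Antiviral and class I genes stood at -4.45 for Isg15, -5.37 for Ifih1, -4.63 for Ifit1, -1.19 for Ifitm3, -1.25 for H2-K1 and -1.21 for H2-D1. They fell in the empty-vector cells and were not called by label in the MUNC cells. Of these genes only Ifitm3 had a log2 fold change below 0 there (-0.41). Of the secreted factors, Cxcl10 was at -6.46, Ccl5 at -6.82 and Lif at -2.43, and cyclin D2 (Ccnd2) was at -5.66. On chromosome 11, Itgb4 was at -4.12, Axin2 at -4.1 and Hoxb6 at -4.61. Itgb4 and Axin2 rose by label in the MUNC cells, to levels still below those of the WT-labelled empty-vector cells. In the chromosome 5 block Abcb1a was at -7.77, Abcb1b at -5.14, Tmem243 at -4.01, Crot at -4.05 and Dmtf1 at -1.47. Sh3bgrl2 was at -4.81, Slc4a4 at -6.75, Ccnb1ip1 at -5.7 and Unc5c at -6.12. Peg10 (-8.52), Nbea (-7.59) and Nefm, a neurofilament gene (-6.41), did not differ by label beyond the threshold in the empty-vector cells and were low in the WT-labelled MUNC cells alone among the 4 proliferating groups.

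Against differentiating cells, the contractile and calcium release genes stood at -2.92 for Ryr1, -4.13 for Tmod1, -3.23 for Sgca, -8.94 for Myh3 (embryonic myosin heavy chain), -7.3 for Acta1 and -5.38 for Mylpf (a fast myosin light chain), and Tagln at -5.52. Their label difference was more positive in differentiating cells, where Myh3 was at 0.932 and 0.543 CPM against 208 and 238 CPM. Zfp704 was at -2.74, Cdc6 at -1.15, Pccb at -1.4, Ifit1 at -2.95, Ifitm3 at -0.99 and Igf2bp2 at 3.43. Cd53 (6.8), Prl2c2 (6.56), Serpinb9g (6.49) and Slfn2 (5.99) fell by label in differentiating cells and did not pass in proliferating ones. The difference between media of Prl2c2 was not called with only the 8 libraries fitted (adjusted p 0.0699) or in 6 of the 8 fits with a library left out (0.128 to 0.177). That of Myh3 was not called without WT rep1 of the proliferating cells (0.0525), nor that of Acta1 in 7 of the 8 such fits (0.0657 to 0.12). Prl2c2 has near-identical copies, between which reads may have been divided.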

How the results depend on the processing

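Of the genes named from the proliferating empty-vector comparison, 105 called ones were followed through the alternatives, and none of these reversed. Abcb4, Hoxb5, Hoxc12, Fzd8, Tgfbi, Nrarp, Acad8, Fabp4, Cdh5, Egfl7, Lyz2, Mbp, Ifi35, Dhx58, Irgm1 and Trim25 were not followed singly. With each of its 4 libraries left out in turn, 54 were called every time. Without WT rep1, WT rep2, KO rep1 or KO rep2, 37, 42, 33 and 33 lost the call, against 55 with only these 4 libraries fitted, 44 at a threshold of 0.01, 20 with limma, and none with DESeq2 or effective length offsets; the cause was not tested. Myf5 and Mki67, which were not called, turned to -0.07 and 0.01 on the log2 scale without KO rep2, and reached 0.71 and -0.36 without KO rep1. At 0.01 the genes called numbered 659 here, 630 in MUNC cells, 2492 in differentiating cells, 288 between vectors and 56 between media. With only a comparison's own libraries they numbered 341 here, 101 in MUNC cells, 221 between vectors and 159 between media. DESeq2 gave 1263 between vectors and 997 between media, and limma 1046 between media. With 1 library left out the counts ran from 713 to 895 here, from 628 to 1567 in MUNC cells, from 2643 to 3762 in differentiating cells, from 393 to 740 between vectors and from 66 to 319 between media, where the lone library was assumed to vary like the other groups. The alternatives for MUNC cells, differentiating cells and chromosome 11 were chosen after seeing the data.

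The replicate numbers are 2 per group, and the labels do not say that they mark a shared culture or day, so they were not taken to pair samples. The deviations of the replicates from their group means correlated with r = 0.508 between the 2 groups compared here, and between -0.013 and 0.712 over 28 pairs of groups. With the replicate block, 2405 genes were called here, 2379 in MUNC cells, 1168 between vectors and 898 between media, and none of the 105 calls was lost. Ccnd1 and Igfbp5, not called without it, passed (adjusted p 0.00139 and 0.0432). Chromosome 11 then held 371 lower genes, against 27 with only the 4 libraries fitted. No sample's depth was below 35832002 counts, so that genes of a few counts, not the totals, set the widest intervals.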
